A study of Mus musculus with 18 samples.

Results

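The maternal-effect and cytoplasmic lattice genes Padi6, Ooep, Tle6, Khdc3, Zbed3, Zar1, Npm2 and Dppa3 were followed in mouse ovaries that either carried a knockout of Elavl2 or were wild type. Elavl2 encodes an ELAV-type RNA-binding protein. The 8 genes were chosen by name, from the gene names on the arrays, with earlier results of these data known. All 8 were among the 19303 genes tested. Each was read by 1 probe. Ovaries came from embryos at stages E15.5 and E17.5 and from newborns at P0. Each genotype had 3 arrays at a stage, which made 6 groups and 18 arrays. Controls were wild-type ovaries of the same stage. The labels call the tissue XX gonad or ovary, call the sample type mixed, and name no allele, strain or deleted exon. Whether replicates are separate animals is not said, so the p-values describe only how these samples vary, which may be technical.

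These genes belong to the store that an oocyte lays down for the embryo. Ooep, Tle6, Khdc3 and Zbed3 encode proteins of the subcortical maternal complex, a protein assembly under the oocyte membrane, and Padi6 is needed for the cytoplasmic lattices, fibrous structures of the oocyte cytoplasm. Zar1 encodes an RNA-binding protein that acts on stored maternal messages, Npm2 encodes nucleoplasmin, a histone chaperone of the oocyte nucleus, and Dppa3, also called Stella, is expressed in germ cells and oocytes and protects maternal DNA methylation in the zygote. In the mouse ovary, germ cells enter meiosis before birth and primordial follicles form around birth.

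Levels are given as the log2 signal minus the 75th percentile of the array, so a value of 0 means a signal equal to that percentile. Values of different genes come from different probes and were not compared with each other. A difference was called when the Benjamini-Hochberg adjusted p of limma, a linear model fitted over all genes and 18 arrays, was under 0.05. The arrays belonged to 2 runs, read from the form of the file names: run A held all E15.5 arrays and replicate 3 of both E17.5 groups, and run B held the others. The run was a term of the model.

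At P0 7 of the 8 genes were lower in the knockout and Dppa3 was not called, against 16.1% of all genes called lower. The falls ran from 32.8-fold for Npm2 to 1.86-fold for Tle6. At E17.5 4 were called lower (Padi6, Khdc3, Npm2 and Zbed3), against 2.82% of all genes. This count depended on single arrays, replicate 3 among them, and ran from 0 to 6 when 1 array was left out. At E15.5 none was called, against 1.62% of all genes called in either direction. In wild-type ovaries all 8 rose from E17.5 to P0, and in knockout ovaries all 8 rose too, by less for Npm2, Zar1 and Tle6 under the interaction term of the model.

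The sequence just before the start of 4 of these genes is shown because each holds an E-box, the motif CANNTG bound by basic helix-loop-helix factors, at nearly the same distance from the start. The 2 windows of Tle6 and the 3 of Zbed3 held none from 90 to 70 bases before the start. RefSeq windows of 300 bases (assembly GRCm38.p6, 250 bases before and 50 after the start) were matched for 6 of the 8 genes, as 9 windows. Npm2 and Dppa3 were not matched. The 150 bases before the start are given 5′ to 3′ on the gene's strand, with every E-box in capitals, for Padi6 (chr4:140742644-140742793, minus strand), Ooep (chr9:78378589-78378738, minus strand), Khdc3 (chr9:73102248-73102397, plus strand) and Zar1 (chr5:72581085-72581234, minus strand).
Padi6: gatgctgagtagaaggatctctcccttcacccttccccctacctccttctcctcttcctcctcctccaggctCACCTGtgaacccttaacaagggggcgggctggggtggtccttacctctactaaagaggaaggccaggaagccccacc
Ooep: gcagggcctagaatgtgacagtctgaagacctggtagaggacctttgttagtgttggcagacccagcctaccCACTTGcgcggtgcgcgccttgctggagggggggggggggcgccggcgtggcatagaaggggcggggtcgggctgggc
Khdc3: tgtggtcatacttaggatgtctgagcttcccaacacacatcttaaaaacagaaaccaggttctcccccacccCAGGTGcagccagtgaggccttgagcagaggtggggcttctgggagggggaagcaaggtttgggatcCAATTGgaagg
Zar1: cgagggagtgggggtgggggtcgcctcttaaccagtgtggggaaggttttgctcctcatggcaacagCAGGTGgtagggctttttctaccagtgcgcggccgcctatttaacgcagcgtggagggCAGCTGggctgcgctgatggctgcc
The first base of an E-box lay 78 bases before the start in Padi6, Ooep and Khdc3, and 83 bases before it in Zar1. Their letters were CACCTG in Padi6, CACTTG in Ooep and CAGGTG in both Khdc3 and Zar1. Of all 32851 windows, 0.484% held an E-box that starts at exactly that 78-base distance and 9.73% held one from 90 to 70 bases before the start. This distance was singled out after the windows had been seen, and the match is a description of letters.

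An E-box anywhere was common: all 9 windows held at least 1, as did 72.3% of all windows. The NOBOX element form TAATTG, read on both strands, was in 2 of the 9 windows (Padi6 and Ooep), against 8.0% of all windows. The forms TAATTA and TAGTTG were in 0 of the 9, against 5.29% and 6.59% of all windows. The LHX8 element TGATTG was in 2 of the 9 windows, 1 of Tle6 and 1 of Zbed3, against 14.0%. The letters TATAAA were in 1 window, of Zbed3, against 13.6%. Both strands were searched in every case.

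The targeted gene was checked first. Elavl2 was read by 2 probes, and the brighter one stood for the gene. Its level at E15.5 was 1.97, 2.08 and 2.28 in the wild-type replicates 1, 2 and 3 and 1.88, 2.02 and 2.11 in the knockout replicates. At E17.5 it was 3.58, 3.60 and 3.36 in wild type and 2.98, 2.77 and 2.19 in knockout. At P0 it was 4.50, 4.59 and 4.48 in wild type and 3.31, 2.94 and 3.24 in knockout. The groups overlapped at E15.5 and did not overlap at E17.5 or P0. Knockout minus wild type was -0.11 ± 0.12 (log2, SE) for the E15.5 groups (limma adjusted p = 0.75), -0.87 ± 0.12 for the E17.5 groups (0.00448) and -1.36 ± 0.12 for the P0 groups (9.02e-06). The probe was above background in every knockout array, and whether it lies in the deleted part of the gene is not given in the sources used here, so it does not check the labels.

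The share of probes well above background ran from 62.6% to 75.2% per array, and replicates correlated with r from 0.965 to 0.995 across genes. Germ cell markers (12 genes, among them Ddx4 and Dazl) and the pregranulosa marker Foxl2 were well above background in the arrays of all 6 groups. At E15.5 the 12 germ cell markers summed to 117 to 123 times the array's percentile in wild type and 137 to 152 in knockout. At P0 the summed level was 124 to 133 in wild type and 133 to 162 in knockout. Tex101 and Dazl were the 2 markers called higher at P0, and a sum weighs bright markers most. At E17.5 the summed level was 115 to 139 in wild type and 94.3 to 124 in knockout. The median log2 change of the 12 markers, knockout minus wild type, was -0.39 at E17.5 and -0.16 at P0. At E17.5 1 marker was called higher and 1 lower, against 257 and 545 of all 19303 genes. Fewer cells of a type and less RNA per cell cannot be told apart in whole ovaries. The arrays lay on 7 slides, and at E15.5 and P0 no slide held both genotypes of the stage, so slide and genotype cannot be told apart there. At E17.5 replicate 3 of both genotypes shared slide 3, while replicates 1 and 2 were split by genotype, wild type to slide 6 and knockout to slide 7, so neither can they be told apart within run B.

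**Figure D1:**
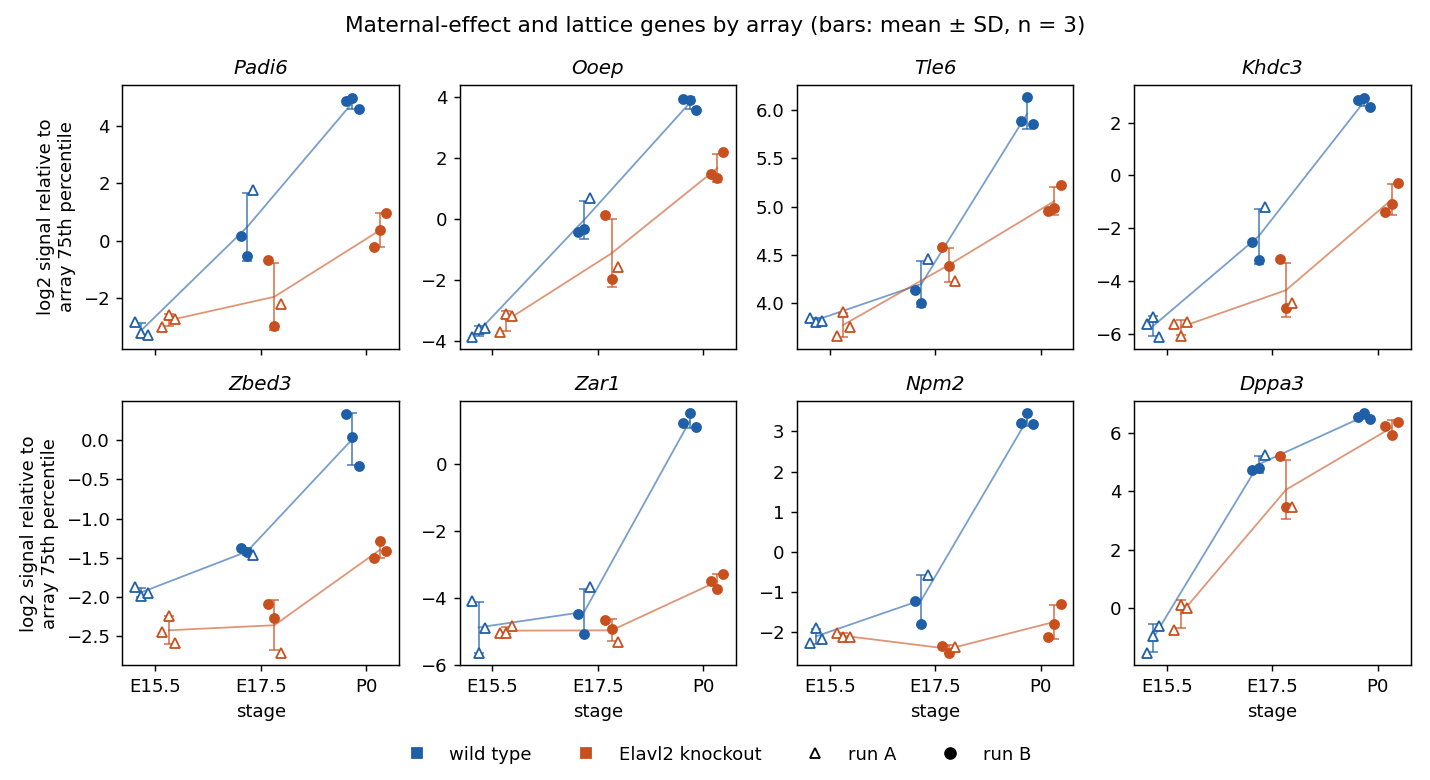
Log2 signal relative to the array's 75th percentile (vertical axis, scaled separately for each gene) at the 3 stages (horizontal axis), 1 panel per gene. Points are arrays, blue for wild type and orange for knockout, with open triangles for run A and filled circles for run B. Bars are the mean ± SD of 3 arrays. At P0 all 3 knockout arrays lay below all 3 wild-type arrays for each of the 8 genes, against 25.3% of all genes. The narrowest separation was that of Dppa3.

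Padi6 encodes the lattice protein of the peptidylarginine deiminase family. At E15.5 its level was -2.84, -3.22 and -3.27 in wild-type replicates 1, 2 and 3, and -3.00, -2.59 and -2.71 in the knockout replicates. At E17.5 it was 0.17, -0.53 and 1.79 in wild type, and -0.68, -2.97 and -2.18 in knockout. At P0 it was 4.88, 4.96 and 4.58 in wild type, and -0.23, 0.38 and 0.95 in knockout. The P0 knockout arrays of Padi6 lay within the span of the E17.5 wild-type arrays, and the genotypes overlapped at E15.5 only. The knockout difference was 0.34 ± 0.54 at E15.5, -2.42 ± 0.54 at E17.5 (adjusted p = 0.0271, limma) and -4.44 ± 0.54 at P0 (adjusted p = 8.21e-05), a 21.7-fold fall at P0 that ranked 14 from the lowest of 19303 genes.

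Ooep, which encodes a KH-like protein of the complex, was read at -3.86, -3.61 and -3.55 in wild-type replicates at E15.5 and -3.71, -3.11 and -3.17 in knockout. At E17.5 the values were -0.44, -0.32 and 0.68 in wild type and 0.15, -1.95 and -1.56 in knockout. At P0 they were 3.94, 3.89 and 3.58 in wild type and 1.47, 1.34 and 2.19 in knockout. The first knockout replicate at E17.5 lay among the wild-type arrays while replicates 2 and 3 lay below them, and at P0 the groups were apart. The fall at P0 was 2.14 ± 0.46 on the log2 scale, or 4.40-fold (adjusted p = 0.00338, limma), while the E17.5 difference of -1.09 ± 0.46 was not called (adjusted p = 0.184).

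Tle6, the TLE-family member of the complex, was read in the E15.5 arrays at 3.85, 3.80 and 3.82 in wild type and 3.66, 3.91 and 3.76 in knockout. At E17.5 it was 4.14, 4.0 and 4.46 in wild type and 4.58, 4.39 and 4.23 in knockout. At P0 it was 5.88, 6.13 and 5.85 in wild type and 4.96, 4.99 and 5.22 in knockout. The genotypes overlapped at both embryonic stages and were apart at P0. Its P0 fall of 0.90 ± 0.13 (1.86-fold, adjusted p = 0.000263, limma) followed an uncalled E17.5 difference of 0.20 ± 0.13 (adjusted p = 0.399).

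Khdc3, also called Filia, is a KH-domain protein of the complex linked to genome stability in embryos. Its E15.5 level was -5.63, -5.35 and -6.11 in wild type and -5.62, -6.07 and -5.54 in knockout, and only 2 of 3 arrays in each group were well above background. The E17.5 level was -2.52, -3.21 and -1.18 in wild type and -3.15, -5.03 and -4.84 in knockout. The P0 level was 2.85, 2.94 and 2.60 in wild type and -1.39, -1.09 and -0.27 in knockout. At E17.5 the first knockout replicate lay just above the lowest wild-type array, and at P0 the groups were far apart. The difference was -2.04 ± 0.52 at E17.5 (adjusted p = 0.0456, limma) and -3.71 ± 0.52 at P0 (adjusted p = 0.000207), a 13.1-fold fall at birth. The E17.5 call of Khdc3 was lost with median scaling (adjusted p = 0.0554), with no filter on dim probes (0.0781), without the run term (0.0628), with the slide as a random block (0.0538) and with array weights (0.145).

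Zbed3 encodes a zinc-finger protein that binds the complex. It was -1.88, -2.0 and -1.95 in wild type and -2.45, -2.24 and -2.60 in knockout at E15.5. Its E17.5 values were -1.38, -1.43 and -1.46 in wild type and -2.10, -2.27 and -2.72 in knockout. Its P0 values were 0.33, 0.04 and -0.32 in wild type and -1.50, -1.29 and -1.41 in knockout. It was the single gene of the 8 whose knockout arrays lay below all wild-type arrays at all 3 stages. The E15.5 difference of -0.49 ± 0.15 was not called (adjusted p = 0.139, limma), and 10.7% of all genes were lower without overlap at that stage. The falls at E17.5 and P0 were 0.94 ± 0.15 (adjusted p = 0.00747) and 1.42 ± 0.15 (2.67-fold, adjusted p = 3.19e-05).

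Zar1 stayed low through E17.5 and rose late. At E15.5 it was -4.10, -5.65 and -4.90 in wild type and -5.04, -5.05 and -4.85 in knockout. Levels at E17.5 were -4.50, -5.07 and -3.69 in wild type and -4.67, -4.93 and -5.31 in knockout. Levels at P0 were 1.24, 1.53 and 1.11 in wild type and -3.50, -3.74 and -3.29 in knockout. Apart from the P0 groups, the neighbours in the order of group levels overlapped, and the P0 knockout overlapped the E17.5 wild type. The P0 difference was -4.80 ± 0.36 (27.9-fold, adjusted p = 2.51e-06, limma), the fifth lowest change of all genes, and the E17.5 difference of -0.55 ± 0.36 was not called (adjusted p = 0.393).

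Npm2 was the gene with the largest fall among the 8 at P0. At E15.5 it was -2.27, -1.91 and -2.17 in wild type and -2.02, -2.13 and -2.14 in knockout. For E17.5 the level was -1.22, -1.82 and -0.59 in wild type and -2.37, -2.54 and -2.38 in knockout. For P0 it was 3.21, 3.46 and 3.18 in wild type and -2.13, -1.82 and -1.31 in knockout. The P0 knockout arrays lay within the span from the E15.5 arrays to the E17.5 wild-type arrays, and the P0 wild-type arrays lay above all others. The difference was -1.22 ± 0.22 at E17.5 (adjusted p = 0.0129, limma) and -5.04 ± 0.22 at P0 (32.8-fold, adjusted p = 8.69e-08), the fourth lowest of all genes.

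Dppa3 had the largest wild-type rise of the 8 genes between the embryonic stages. At E15.5 it was -1.53, -0.94 and -0.59 in wild type and -0.72, 0.13 and 0.01 in knockout. By E17.5 it stood at 4.72, 4.79 and 5.25 in wild type and 5.22, 3.48 and 3.47 in knockout. By P0 it stood at 6.55, 6.67 and 6.46 in wild type and 6.24, 5.91 and 6.38 in knockout. The P0 groups did not overlap, by a small margin, as for 25.3% of all genes on the lower side. The P0 difference was -0.38 ± 0.41 (95% confidence interval -1.27 to 0.50) and was not called (adjusted p = 0.488, limma). With only the P0 arrays in the limma fit, Dppa3 was lower at an unadjusted p under 0.05 and still not called. Nor was the difference called at E15.5 (0.83 ± 0.41, adjusted p = 0.374) or E17.5 (-0.87 ± 0.41, adjusted p = 0.236).

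**Figure D2:**
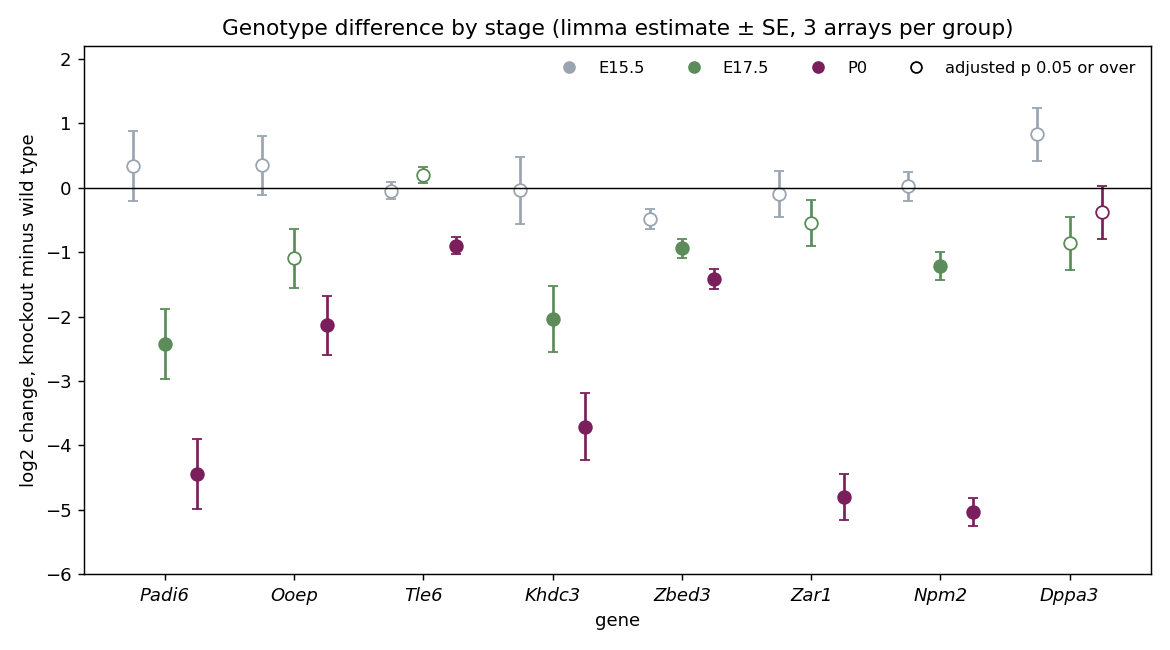
Log2 difference of knockout minus wild type (vertical axis) for each gene (horizontal axis), with 1 colour per stage. Points are limma estimates and bars their SE, with 3 arrays per group, filled where the adjusted p was under 0.05. Points at P0 lay between -5.04 for Npm2 and -0.38 for Dppa3, and the E15.5 points between -0.49 and 0.83.

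The median knockout difference of the 8 genes went from -0.01 in the E15.5 groups to -1.02 in the E17.5 groups and -2.92 in the P0 groups, against medians of 0.01, 0.05 and 0.00 over all genes tested. The E15.5 count of 0 calls by limma stood beside 1 gene, Zbed3, at an unadjusted p under 0.05. Of the 8 genes 1 was lower without overlap at E15.5, 3 at E17.5 (Padi6, Zbed3 and Npm2, against 8.17% of all genes) and 8 at P0 (against 25.3%).

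The 4 calls at E17.5 depended on single arrays, among them replicate 3, the 1 array of each genotype in run A. They also depended on the spread pooled over all stages. With only the E17.5 arrays in the fit no gene of the 8 was called. The SE of Padi6 was then 0.81 in place of 0.54 (adjusted p = 0.222, limma). Within run A the knockout minus wild-type difference was -3.97 for Padi6, -3.66 for Khdc3, -1.79 for Npm2 and -1.26 for Zbed3, and within run B, with 2 arrays per genotype, it was -1.64, -1.22, -0.93 and -0.78. The direction was the same in both runs for these genes, while that of Tle6 was not (-0.24 and 0.41). With E17.5 arrays of run B alone no gene of the 8 was called by limma, and 5 had an unadjusted p under 0.05: 4 were lower and Tle6 was higher (0.41 ± 0.12, adjusted p = 0.133). The same count of 0 calls resulted from leaving out wild-type replicate 3 or knockout replicate 3, and leaving out wild-type replicate 1 or knockout replicate 2 left 1 (Zbed3). Leaving out knockout replicate 1, which was the highest knockout array for each of the 8 genes, gave 6 calls, adding Ooep (-1.86, adjusted p = 0.00286) and Dppa3 (-1.49, adjusted p = 0.013). With the replicate number as a block in place of the run term, Padi6 (adjusted p = 0.0523) and Khdc3 (adjusted p = 0.0728) were not called by limma while Npm2 and Zbed3 were. With the block and the run term together, an alternative chosen after seeing the data, Padi6 was called (adjusted p = 0.045) and Khdc3 was not (adjusted p = 0.0653). Over all genes the deviations of same-numbered E17.5 arrays from their group means had r of 0.121 to 0.451. Replicate 3 is also run A, so number and run cannot be told apart in these r. Within run B, replicate 1 minus replicate 2 correlated between the genotypes with r = -0.0739. Padi6 and Khdc3 deviated in opposite directions in replicates 1 and 3 of the genotypes.

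Marker levels also differed between the E17.5 arrays, and not all lists followed the same arrays. The summed germ cell marker level was 124 in knockout replicate 1 and 99.1 and 94.3 in replicates 2 and 3, against 115, 120 and 139 in wild type. The same arrays that were high for Padi6, Ooep and Khdc3, wild-type replicate 3 and knockout replicate 1, had the highest germ cell marker level of their group. The summed level of 8 measured red cell markers was 203, 249 and 413 in knockout and 200, 163 and 135 in wild type, that of 7 macrophage markers was 49.2 in knockout replicate 3 and 10.8 to 19.6 in the others, and the 8 pregranulosa markers summed to 122 to 139 in knockout and 112 to 119 in wild type. Their part in the E17.5 differences was not tested. At P0, where the falls were largest, the median change of the 12 germ cell markers was -0.16, none was called lower, and 2 were called higher (Tex101 by 1.48 and Dazl by 0.86), against 16.1% of all genes called lower and 18.3% called higher. The pregranulosa markers summed to 110 to 127 in knockout and 90.4 to 104 in wild type at P0, and 7 endothelial markers to 8.50 to 10.3 and 6.63 to 7.71, and their part in the P0 differences was not tested.

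From E15.5 to E17.5 in wild type 5 of the 8 genes rose, against 15.3% of all genes: Dppa3 by 5.81 ± 0.50, Padi6 by 4.12 ± 0.67, Ooep by 3.78 ± 0.56, Khdc3 by 3.71 ± 0.64 and Npm2 by 1.24 ± 0.27 (log2, SE). Zar1 (0.66), Tle6 (0.42) and Zbed3 (0.32) were not called. In the knockout 3 rose, against 11.8% of all genes: Dppa3 by 4.12, Ooep by 2.34 and Tle6 by 0.67, the last not called with median scaling. Run A alone, with E17.5 replicate 3 against the 3 E15.5 arrays, gave rises of 6.27 for Dppa3, 4.90 for Padi6, 4.36 for Ooep and 4.52 for Khdc3 in wild type, and 3.66, 0.59, 1.77 and 0.90 in knockout. Without wild-type replicate 3 of E17.5 1 gene, Dppa3, was called in wild type, and without knockout replicate 3 of E17.5 5 genes were called in knockout, Padi6 and Khdc3 among them. Whether the rise differed between the genotypes in this interval was not tested.

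From E17.5 to P0 all 8 genes rose in wild type, against 22.1% of all genes, and all 8 rose in knockout, against 18.2%. In wild type the rises were 5.81 for Zar1, 5.25 for Khdc3, 4.66 for Npm2, 4.60 for Padi6, 3.90 for Ooep, 1.78 for Tle6, 1.58 for Dppa3 and 1.34 for Zbed3. In knockout they were 1.56 for Zar1, 3.58 for Khdc3, 0.84 for Npm2, 2.58 for Padi6, 2.85 for Ooep, 0.68 for Tle6, 2.06 for Dppa3 and 0.86 for Zbed3. The wild-type rise of Dppa3 was not called without E17.5 wild-type replicate 1 or replicate 2, nor was the knockout rise of Npm2 without P0 knockout replicate 3. The interaction term of the model tested the difference between the rises. The knockout rise minus the wild-type rise was -4.25 ± 0.51 for Zar1 (adjusted p = 0.000567, limma), -3.82 ± 0.31 for Npm2 (adjusted p = 2.9e-05) and -1.10 ± 0.18 for Tle6 (adjusted p = 0.00408), against 6.12% of all genes. For Padi6 (-2.02, adjusted p = 0.11), Khdc3 (-1.67, 0.161), Ooep (-1.04, 0.317), Zbed3 (-0.48, 0.17) and Dppa3 (0.48, 0.626) the difference between the rises was not called. With the E17.5 arrays of run B alone, or without E17.5 wild-type or knockout replicate 3, Padi6 and Khdc3 were called as well.

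The 5 measured partners of the complex and lattices outside the 8 genes were tested in the same fit. At P0 4 of the 5 were lower, against 16.1% of all genes, with log2 differences of -4.44 for Nlrp14, -2.55 for Nlrp4f, -1.69 for Nlrp5, a core protein of the complex, and -0.38 for Uhrf1, a DNA methylation cofactor (adjusted p of 0.000366, 0.00296, 0.0168 and 0.0314, limma). Nlrp2 was at -0.47 and not called (adjusted p = 0.0814). At E17.5 Nlrp14 (-3.02) and Nlrp5 (-2.39) were called lower, against 2.82% of all genes. How far their E17.5 calls depend on single arrays or on the processing was not tested. The median change at P0 was -1.69.

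Other oocyte genes were counted as well, to be read against the 16.1% of all genes called lower and the 18.3% called higher at P0. Of 15 measured zona and oocyte growth genes, 12 fell and 1 rose at P0, with a median of -3.30. They included Oosp1 (-5.10), Zp3 (-5.32), Gdf9, an oocyte growth factor (-3.30), and Rfpl4 (-2.90). Of 22 measured other maternal-effect genes 9 fell and 2 rose, with a median of -0.25, and the falls included Btg4 (-3.75), Pou5f1 (-3.73), Zfp57 (-1.24) and Dicer1 (-0.84). Of 8 measured oocyte transcription factors 1 fell, Tbpl2 (-3.87), and 1 rose, Gata2 (0.66), with a median of -0.12. Nobox (-0.46), Figla (-0.05) and Lhx8 (-0.19) were not called, with adjusted p of 0.361, 0.874 and 0.737.

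**Figure D3:**
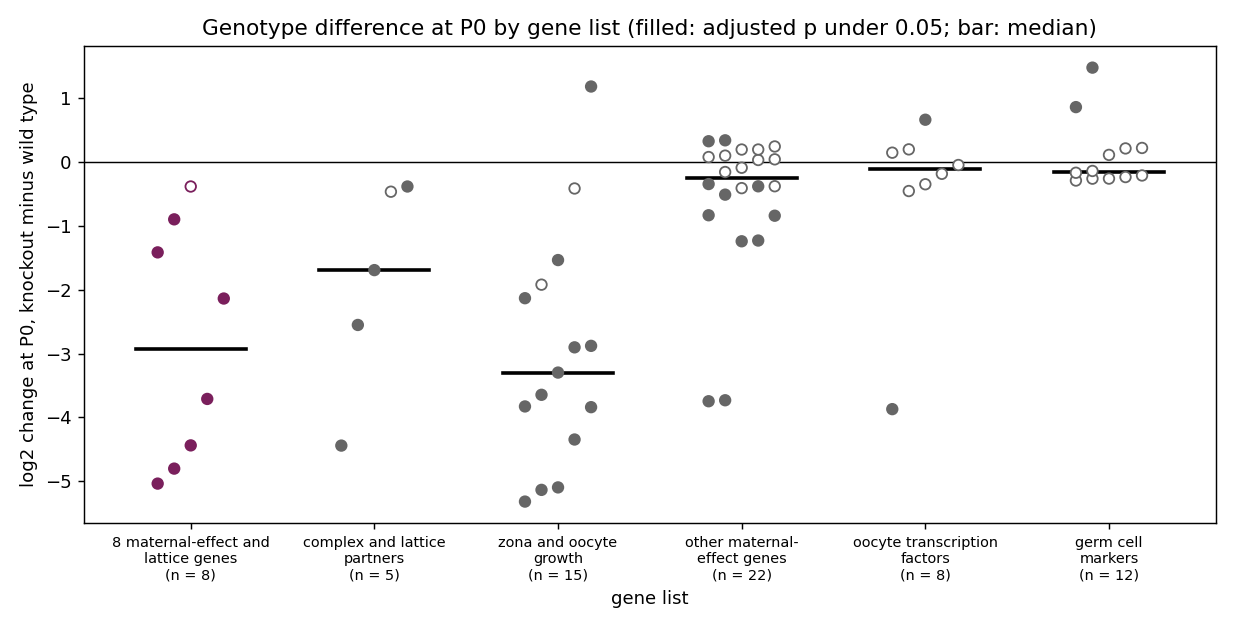
Log2 difference of knockout minus wild type at P0 (vertical axis) for single genes by list (horizontal axis). Filled points had an adjusted p under 0.05 and the bar is the list's median. The 8 maternal-effect and lattice genes had a median of -2.92 and the zona and growth genes -3.30, while the germ cell markers had -0.16.

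Across the 18 arrays the 28 pairs of the 8 genes correlated with Pearson's r from 0.54 (Npm2 with Dppa3) to 0.98 (Padi6 with Khdc3), median 0.91. The arrays share stage and genotype groups, and after subtracting each group's mean the r ran from -0.02 to 0.92, median 0.60. The 18 arrays also shared runs and slides. The pairs among Padi6, Ooep, Tle6 and Khdc3 had r of 0.74 to 0.92 between deviations. For each of these genes the highest deviations were those of E17.5 wild-type replicate 3 and knockout replicate 1 (Padi6 1.31 and 1.26, Khdc3 1.13 and 1.19). The r without those arrays was not tested. Ooep had 0.90 with Dppa3, Khdc3 had 0.76 with Npm2, and the pairs of Zbed3 had -0.02 to 0.37.

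**Figure D4:**
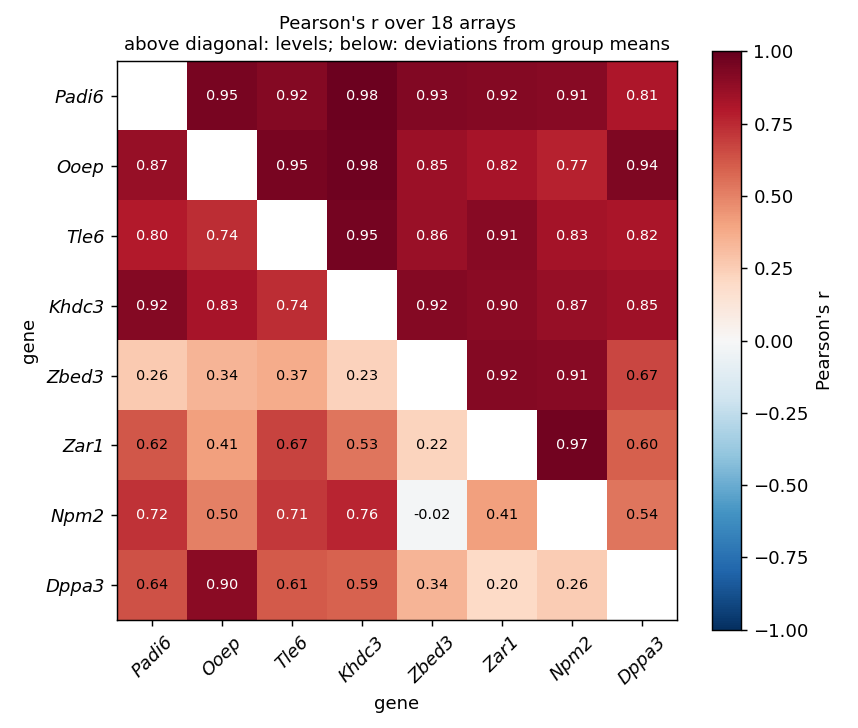
Pearson's r for each pair of genes over 18 arrays, with levels above the diagonal and deviations from group means below it, coloured from blue (-1) to red (1). Both axes list the 8 genes. The block of Padi6, Ooep, Tle6 and Khdc3 held r of 0.74 to 0.92 between deviations. Their deviations were highest in E17.5 wild-type replicate 3 and knockout replicate 1.

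Genes outside the 8 with the most similar level over the 18 arrays were found for each by Pearson's r among 19246 genes. These r include what the arrays share by stage and genotype group. For these genes r between deviations from group means was not computed. For Padi6 they were Fbxw27, Oas1e and Gdf9, with r of 0.993, 0.990 and 0.989. For Ooep they were LOC102637942, Fbxw26 and Arhgef16 (0.993, 0.992 and 0.992), for Tle6 Speer4f1, Krt79 and AK044294 (0.986, 0.978 and 0.977), for Khdc3 Mphosph6, Dnah9 and Oas1e (0.992, 0.991 and 0.991), and for Zbed3 Dbx2, Csnk1e and Prkab2 (0.969, 0.966 and 0.966). For Zar1 they were Il34, LOC102641377 and Fam241b (0.983, 0.983 and 0.983), for Npm2 Fam241b, Sh3bp2 and Prodh (0.985, 0.979 and 0.974), and for Dppa3 Esrp1, Pdzk1 and Pramel13 (0.997, 0.997 and 0.994).

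The probes lay, on build mm9 as the scanner files give it, at chr4:140283554-140283613 for Padi6, chr9:78225830-78225889 for Ooep, chr10:81053702-81053761 for Tle6, chr9:72952157-72952216 for Khdc3, chr13:96106826-96106885 for Zbed3, chr5:72969536-72969674 for Zar1, chr14:71047255-71047314 for Npm2 and chr6:122580134-122580193 for Dppa3. The Zar1 probe spans 139 bases of genome for its 60 bases. A single probe reads 1 stretch of a transcript, and other isoforms were not measured.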

How the data were processed

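RNA of whole ovaries was labelled with Cy3 and read on 1-colour Agilent 4x44K mouse arrays. The deposited intensity of each spot was background-subtracted by the authors with Agilent Feature Extraction, whose version is 10.7.3.1 per the file headers but 9.5 in the submitters' processing notes. The deposited series matrix holds log2 values and differs from the log2 intensity by 1 constant on each array. Control and outlier spots were dropped, and 0 spots were saturated. From the intensities the log2 value minus the array's 75th percentile was taken. Probes well above background on all 3 arrays of 1 or more groups were kept (29209 of 41174), and the brightest probe stood for a gene. Names came from the files and, for 28223 probes, from RefSeq (GRCm38.p6), which also gave the promoter windows. limma 3.58.1 in R 4.3.3 fitted 6 groups and the run over 18 arrays, with 11 residual degrees of freedom and Benjamini-Hochberg adjustment over 19303 genes. The procedure was tested on simulated data.

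The 8 genes and the lists were chosen with earlier results of these data known. Named genes are the 8, Elavl2, the 3 most similar genes of each, any gene of the first pair of lists (complex partners and other maternal-effect genes) and up to 4 genes of the other lists with the smallest adjusted p at P0; Nobox, Figla, Lhx8, Ddx4 and Foxl2 were named beyond this rule after their values were seen. To check the replicate numbers, deviations from group means were correlated between arrays of the same number: 0.121, 0.398 and 0.451 at E17.5, where all 3 were above 0.1, from -0.117 to 0.205 at E15.5, and 0.149, 0.101 and 0.0807 at P0. The labels give only the number, and at E17.5 replicate 3 of both genotypes is also run A, so number and run cannot be told apart there. Within run B, replicate 1 minus replicate 2 correlated between the genotypes with r = -0.0739 over 19284 genes. Precision is limited by having 3 arrays in a group.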

Additional observations from a re-analysis of the deposited data

Results flagged for a closer look

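The genotype difference at P0 differed from that at E17.5 for 3 genes, by the interaction term of limma. The P0 difference minus the E17.5 difference (log2) was -3.82 for Npm2, -4.25 for Zar1 and -1.10 for Tle6, with adjusted p of 2.9e-05, 0.000567 and 0.00408. Wild-type arrays of all 3 genes lay above all knockout arrays at P0, in 3 of 3 arrays against 3 of 3, as for 25.3% of all genes. At E17.5 the groups of Zar1 and Tle6 overlapped and those of Npm2 did not. With 1 array left out at a time, the value ran from -4.10 to -3.57 for Npm2 and from -4.79 to -3.93 for Zar1. For Tle6 it ran from -1.31 to -0.98, and all 3 genes stayed called each time.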

How the results depend on the processing

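At P0 all 7 calls held in direction and side of the threshold under every alternative run, and Dppa3 stayed uncalled. With only the P0 arrays in the limma fit, all 8 genes, Dppa3 among them, were lower at an unadjusted p under 0.05. Of the 178 comparisons of a count of calls with an alternative, 162 stayed within 1.5 times. The E17.5 genotype count of 4 became 1 with array weights, 2 with the replicate block in place of the run term (3 with both, an alternative chosen after seeing the data), 0 with only the stages compared (4 genes had an unadjusted p under 0.05), 0 without slide 3 and 0 when E17.5 was limited to run B. Without single arrays it ran from 0 to 6. The interaction count of 3 became 5 with normexp background and quantile normalization, 5 without slide 3 and 5 with run B only, and ran from 3 to 5 without single arrays. The E15.5 to E17.5 count ran without single arrays from 1 to 6 in wild type and from 3 to 5 in knockout. It was 7 in wild type with no run term and 2 in knockout with median scaling. Without slide 3 or with run B only it has no value, because no E17.5 array shares a run with E15.5. The cause was not tested, except that fewer samples entered where arrays were left out. Uncalled differences turned sign: in knockout from E15.5 to E17.5 Zar1 was -0.0363 with normexp and -0.14 with quantile normalization, Npm2 -0.081 with quantile normalization, -0.18 with median scaling and -0.33 without the run term or with the replicate block in its place, and -0.0537 with the block and the run term, and Zbed3 0.0643 without the run term or with the block in its place. At E15.5 Npm2 was -0.0047 with quantile normalization, -0.0242 with median scaling and -0.0688 with array weights, and Zar1 0.20 with array weights. Without single arrays the E15.5 genotype differences ran from -0.058 to 0.12 for Npm2, -0.48 to 0.29 for Zar1, -0.25 to 0.13 for Khdc3 and -0.11 to 0.00848 for Tle6. The wild-type E15.5 to E17.5 rises ran from -0.0131 to 0.47 for Tle6 and -0.42 to 1.05 for Zar1. The knockout ones ran from -0.0586 to 0.58 for Npm2 and -0.22 to 0.18 for Zbed3. Median scaling moved the all-gene median of the P0 difference by 0.14, from 0.00 to 0.14. With the replicate block, calls at P0 and in the interaction were the same 7 and 3 genes; Zbed3 was called in addition from E15.5 to E17.5 in wild type, as it was, with Tle6, when the run term was simply left out. At E17.5 the call of Khdc3 was also lost with median scaling, no dim filter, no run term and the slide as a random block. With array weights the calls of Khdc3, Padi6 and Npm2 were lost (limma adjusted p = 0.145, 0.0868 and 0.101). Khdc3 at E15.5 lay near background. Sizes moved too. Over all alternatives, single arrays left out included, the P0 difference of Zar1 ran from -4.91 to -3.77. Its rise from E17.5 to P0 ran from 4.16 to 6.12 in wild type and from 0.64 to 1.84 in knockout. The E17.5 difference of Khdc3 ran from -2.81 to -1.09, the latter with normexp background and quantile normalization.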
